A study of Rattus norvegicus with 4 samples.

Results

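The semaphorins, their plexin receptors and the neuropilin co-receptors were followed through a spatial transcriptome of the rat trigeminal nerve. The members were all genes whose symbol starts with Sema and a digit or with Plxn, together with Nrp1 and Nrp2. This gave 31 of the 32623 genes in the matrix: 20 semaphorins, 9 plexins and 2 neuropilins. RNA was captured on 4 areas of a Visium slide, a glass surface with a grid of barcoded spots that each lie under several cells or parts of cells. The areas TN1, TN2 and TN3 held root, ganglion and proximal branches of the trigeminal nerve from 1 rat each, taken from the side on which the root had been compressed to model trigeminal neuralgia (TN). The area HC held control nerve of 2 rats whose spots are not told apart, so it was 1 sample. All rats were adult male Sprague-Dawley of wild-type genotype. The study's methods describe sham-operated controls, while the design text takes the HC nerve from the healthy side of animals that also gave TN tissue, and both descriptions are given here because the files do not decide between them.

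Semaphorins are guidance proteins that act through plexins and change the cytoskeleton of the cell that receives them. Class 3 members are secreted and most of them need a neuropilin beside a plexin of class A. Classes 4, 5 and 6 span the membrane, and Sema7a is tethered to it by a lipid anchor. In nerve they are known for steering axons, and several are made by the glia that wrap them, oligodendrocytes in central and Schwann cells in peripheral myelin. The trigeminal root passes from central to peripheral myelin, and the ganglion behind it holds the cell bodies of the sensory neurons of the face.

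Depth lay between 23546025 unique molecular identifiers (UMIs) in TN1 and 41335930 in HC, with medians per spot from 9487 in TN1 to 30808 in TN2. Spots were clustered with the 31 members left out, and clusters were named by marker lists: the ganglion by 14 sensory neuron genes, central myelin by 8 oligodendrocyte genes such as Mog and Mobp, and peripheral myelin by 8 Schwann cell genes such as Prx. Over all spots none of the 14 sensory neuron genes was at 0 in any area, and they summed to 4592 to 11289 UMIs per 1000000 UMIs of the same spots (CPM). TN1, TN2, TN3 and HC had 315, 418, 415 and 957 ganglion spots, 387, 183, 279 and 478 central myelin spots and 419, 10, 387 and 54 peripheral myelin spots. A tissue with fewer than 20 spots in an area was not used there, which leaves TN2 out of peripheral myelin. Cluster 3, in which Schwann cell and connective tissue genes scored almost alike, stayed unnamed and held 327 spots of TN2 and 490 of TN3. Areas carry the same barcode set, and 52 barcode sequences occurred in all 4 areas and 1236 in just 1.

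The members summed to 144668 UMIs. Their summed level was similar across areas, with 1009 CPM in TN1, 1052 CPM in TN2, 1079 CPM in TN3 and 1096 CPM in HC. The single classes were less even. The 6 semaphorins of class 4 summed to 308, 300.1 and 303 CPM in the TN areas and to 503 CPM in HC. The 7 semaphorins of class 3 summed to 196, 203 and 167 CPM in the TN areas and 126 CPM in HC. The 3 plexins of class B summed to 84.8 CPM in TN1 and 83.1 CPM in HC, but to 166 and 186 CPM in TN2 and TN3, so that TN1 lay with HC. The 4 plexins of class A summed to between 99.7 and 104 CPM. CPM counts transcripts and is not scaled by gene length, so levels are compared between samples and not between genes.

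Some members gave almost no signal. In total 7 of the 31 members had fewer than 100 UMIs, 253 together. Sema3a, the secreted semaphorin that repels sensory axons during development, had 2 UMIs, both in HC. It had 0 in the TN areas, where 3 UMIs would be 0.127, 0.0774 and 0.0931 CPM in TN1, TN2 and TN3. Plxna4, a class A plexin of the Sema3a receptor, had 24 UMIs. Plxnb1, the high-affinity receptor of Sema4d, had 58 UMIs, and Plxnc1, the receptor of Sema7a, had 57. Sema5b had 7, Sema3d 41 and Sema6a 64. The other 24 members had from 255 UMIs (Sema3g) to 17212 (Sema4d).

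**Figure D1:**
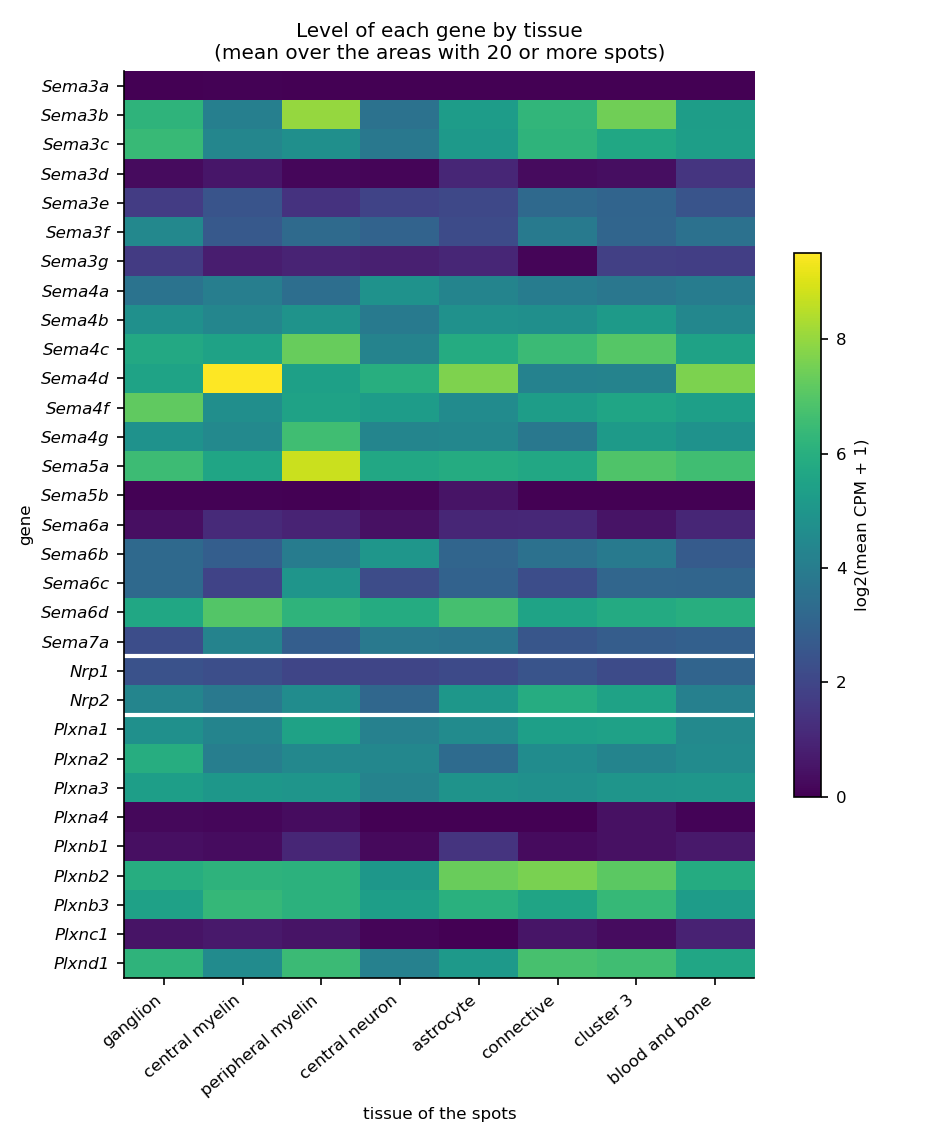
Level of the 31 members in 8 tissues, as log2 of the mean CPM plus 1 over the areas with 20 or more spots of that tissue, with 1 row for each gene. Sema4d has its highest mean in central myelin (733 CPM) and Sema5a in peripheral myelin (429.8 CPM), and the 7 members with fewer than 100 UMIs are near 0 throughout.

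The tissue with the highest level varied between members. Among the 24 members with 100 UMIs or more, 6 had their highest mean level in peripheral myelin, 5 in the ganglion, 4 in connective tissue, 3 in central myelin, 3 in cluster 3, 2 in the central neuron tissue and 1 in the blood and bone tissue, while the astrocyte tissue led for no such member. For 12 of the 24 the areas of the highest tissue did not overlap those of the next. Tissues rest on different sets of areas, some without HC, and few areas make non-overlap easy to reach. The share of all genes was not taken, so this count only describes the members. Tissues of the same areas were then compared with edgeR's quasi-likelihood test on summed UMIs, with the area as a block and p-values adjusted over all genes tested by Benjamini-Hochberg. Fewer cells of a type and less RNA per cell cannot be told apart in such sums. The p-values rest on how far the difference between tissues varied from area to area, with 2 or 3 residual degrees of freedom. In every edgeR test here the spread of each gene is also drawn toward that of all genes. Small p-values and narrow intervals therefore rest in part on other genes and not on these few areas alone.

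Between ganglion and central myelin, over 4 areas, 17 of the 25 members tested passed the adjusted threshold of 0.05, 9 higher and 8 lower in the ganglion. Of all genes 51.9% passed (28.8% higher and 23.1% lower), so such a count is common in this comparison. Between ganglion and peripheral myelin, over 3 areas, 4 of 24 members were higher and 12 lower in the ganglion, against 20.5% and 24.2% of all genes (44.7% in either direction). Between central and peripheral myelin 3 of 22 members were higher and 9 lower in central myelin, against 9.75% and 9.05% of all genes (18.8% in either direction). Of the called members, 16 of 17, 16 of 16 and 12 of 12 had that direction in every area, and the exception was Sema3e with 3 of 4. The blocked test on these same areas favours members with a steady direction, so these counts add no separate evidence.

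The members above both myelins in the ganglion were 1 transmembrane semaphorin, 2 secreted ones and 1 plexin. Sema4f, known from synapses of neurons, was at 154, 171, 119 and 134 CPM in the ganglion of TN1, TN2, TN3 and HC. It was at 34.9, 18.4, 19.48 and 27.5 CPM in central myelin of the same areas, and at 22.97, 33.1 and 75.9 CPM in peripheral myelin of TN1, TN3 and HC. No myelin value reached the lowest ganglion value. Sema4f had a log2 fold change of 2.37 ± 0.16 (SE) against central myelin (adjusted p = 7.33e-07) and 1.65 ± 0.26 against peripheral myelin (adjusted p = 0.000482).

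Plxna2, a class A plexin, was at 78.4, 54.8, 54.4 and 51.2 CPM in the ganglion of TN1, TN2, TN3 and HC. Its values were 23.9, 12.002, 14.2 and 13.2 CPM in central myelin and 17.4, 12.8 and 31.4 CPM in peripheral myelin of TN1, TN3 and HC, all below those of the ganglion. The log2 fold change of Plxna2 was 1.80 ± 0.13 against central myelin (adjusted p = 1.49e-06) and 1.605 ± 0.22 against peripheral myelin (adjusted p = 0.000248). Sema3c, a secreted ligand that can signal through Plxnd1 and the neuropilins, was at 89.2, 105, 80.1 and 64.4 CPM in the ganglion. It was at 17.047 to 24.7 CPM in central and 19.9 to 31.9 CPM in peripheral myelin, and neither range reached the ganglion. The log2 fold changes of Sema3c were 1.95 ± 0.12 and 1.42 ± 0.18 (adjusted p = 5.32e-07 and 0.000161).

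Sema3f, a secreted ligand whose co-receptor is Nrp2, was at 24.55, 12.3, 18.2 and 28.969 CPM in the ganglion of TN1, TN2, TN3 and HC. It was at 2.25 to 8.735 CPM in central and 6.22 to 11.8 CPM in peripheral myelin. The lowest ganglion value, in TN2, stood just above the peripheral range. The log2 fold change of Sema3f was 1.95 ± 0.25 against central myelin (adjusted p = 8.02e-05) and 1.27 ± 0.20 against peripheral myelin (adjusted p = 0.000467). Plxna3, another class A plexin, passed in neither comparison and was at 39.9 ± 3.71 CPM in the ganglion (SD, n = 4), 31.7 ± 4.38 in central (n = 4) and 30.4 ± 2.59 in peripheral myelin (n = 3).

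Central myelin stood out by Sema4d, a transmembrane semaphorin known from oligodendrocytes and from immune cells. It was at 525, 361, 792 and 1256 CPM in central myelin of TN1, TN2, TN3 and HC, and at 34.5, 17.2, 22.2 and 105.5 CPM in the ganglion. In peripheral myelin it was at 13.7, 21.7 and 90.2 CPM in TN1, TN3 and HC. Every central myelin value was above every value of the other two tissues. The log2 fold change of Sema4d was -4.37 ± 0.25 for ganglion against central myelin (adjusted p = 3.39e-07) and 4.80 ± 0.33 for central against peripheral myelin (adjusted p = 5.46e-05). The tissues with the next highest means were astrocyte at 203 ± 23.04 CPM (SD, n = 2) and blood and bone at 198 ± 99.7 CPM (SD, n = 3).

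Sema6d and Sema7a were the other members above both in central myelin. Sema6d, a ligand of Plxna1, had almost the same central myelin level in each area, with 121, 125, 124 and 124 CPM in TN1, TN2, TN3 and HC. It was at 47.8 to 51.5 CPM in the ganglion and 61.4 to 79.8 CPM in peripheral myelin. The 3 tissues did not overlap for Sema6d, and its log2 fold changes were -1.43 ± 0.10 for ganglion against central myelin (adjusted p = 1.48e-06) and 0.85 ± 0.19 for central against peripheral myelin (adjusted p = 0.0147). Sema7a was at 18.4, 25.4, 17.2 and 12.3 CPM in central myelin, above its 1.615 to 5.25 CPM in the ganglion and 5.62 to 6.54 CPM in peripheral myelin. Its log2 fold changes were -2.42 ± 0.34 and 1.49 ± 0.31 (adjusted p = 0.000139 and 0.00998). Sema6a and Sema3e were also lower in the ganglion than in central myelin (-2.36 and -1.21, adjusted p = 0.0185 and 0.0288), with Sema6a at 0.706 to 1.4982 CPM in central myelin and Sema3e at 1.4982 to 7.06 CPM. In central myelin 1 UMI is 0.706 CPM in TN2 and 0.749 CPM in TN3. The Sema6a values and the lowest Sema3e value thus rest on very few UMIs.

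**Figure D2:**
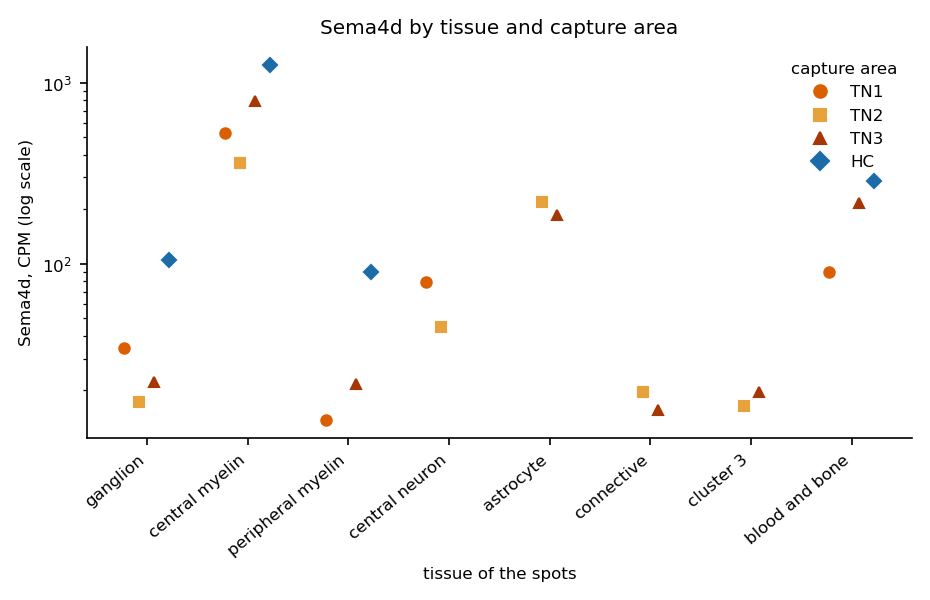
Sema4d in each tissue and capture area, in CPM on a log axis, with 1 point for each area with 20 or more spots (TN1, TN2, TN3 in orange to brown, HC in blue). Central myelin points lie between 361 and 1256 CPM, and the HC point is the highest in each of the 4 tissues in which HC has a point.

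In peripheral myelin 9 members were above both the ganglion and central myelin: Sema5a, Sema3b, Sema4c, Sema4g, Sema6b, Sema6c, Plxna1, Plxnd1 and Nrp2. The share of all genes above both other tissues was not taken for any of the 3 tissues, so the lengths of these lists are not compared. Log2 fold changes of ganglion and central myelin against peripheral myelin were -0.93 and -1.34 for Sema6b and -0.70 and -1.23 for Nrp2. Sema5a, a transmembrane semaphorin with thrombospondin repeats and a ligand of Plxnb3, was at 548, 336 and 405 CPM in peripheral myelin of TN1, TN3 and HC. It was at 88.6, 66.4, 105 and 109 CPM in the ganglion of TN1, TN2, TN3 and HC and at 51.95, 35.3, 56.9 and 45.6 CPM in central myelin. The peripheral values of Sema5a stood far above all others, and the ganglion values lay above the central ones. Its log2 fold changes were -2.27 ± 0.20 for ganglion against peripheral (adjusted p = 2.72e-05), -2.997 ± 0.25 for central against peripheral (adjusted p = 9.15e-05) and 0.85 ± 0.12 for ganglion against central myelin (adjusted p = 0.000185).

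Sema3b, a secreted class 3 ligand, varied more between areas. It was at 431, 163 and 171 CPM in peripheral myelin of TN1, TN3 and HC, at 103, 90.3, 51.2 and 46.3 CPM in the ganglion of TN1, TN2, TN3 and HC and at 22.99, 15.5, 19.48 and 7.33 CPM in central myelin. TN1 was the highest area in each of these tissues, and the tissues did not overlap. The log2 fold changes of Sema3b were -2.08 ± 0.14, -3.95 ± 0.31 and 2.11 ± 0.19 for ganglion against peripheral, central against peripheral and ganglion against central myelin (adjusted p = 1.11e-05, 7.38e-05 and 7.69e-06).

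Sema4c, a ligand of Plxnb2, was at 166, 153 and 152 CPM in peripheral myelin of TN1, TN3 and HC, with little spread. It was at 32.3 to 70.8 CPM in the ganglion and 33.6 to 53.2 CPM in central myelin, which overlapped. The log2 fold change of Sema4c was -2.01 ± 0.19 for ganglion and -1.81 ± 0.23 for central against peripheral myelin (adjusted p = 3.65e-05 and 0.000812). Between ganglion and central myelin it was 0.09 (95% interval -0.21 to 0.39, adjusted p = 0.603). Sema4g, of the same class, was at 111, 83.3 and 98.1 CPM in peripheral myelin, 21.51 to 34.6 CPM in the ganglion and 18.8 to 24.7 CPM in central myelin. Sema6c was at 29.7, 16.3 and 44.5 CPM in peripheral myelin, 6.81 to 10.6 CPM in the ganglion and 0.749 to 4.3992 CPM in central myelin. Neither Sema4g nor Sema6c overlapped between peripheral myelin and the others, and the log2 fold changes of ganglion and central myelin against it were -1.89 and -2.17 for Sema4g and -1.77 and -3.275 for Sema6c.

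The receptors on this list differed less. Plxna1, which receives class 3 and class 6 ligands, was at 40.05, 44.4 and 48.4 CPM in peripheral myelin of TN1, TN3 and HC, 20.2 to 33.6 CPM in the ganglion and 15.6 to 22.5 CPM in central myelin. Plxnd1, the receptor of Sema3e that is known from blood vessels, was at 82.1, 78.5 and 107 CPM in peripheral myelin, 56.976 to 86.8 CPM in the ganglion and 18.5 to 26.968 CPM in central myelin. Plxnd1 overlapped between peripheral myelin and ganglion while central myelin stood apart, with a log2 fold change of -1.998 ± 0.24 for central against peripheral myelin (adjusted p = 0.000546). Endothelial genes, 6 in all and none at 0, summed to 195 to 282 CPM in peripheral myelin, 157 to 203 CPM in the ganglion and 154 to 213 CPM in central myelin, and their part in the Plxnd1 differences was not tested.

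The plexins of class B had another order. Plxnb3, a receptor of Sema5a, was at 75.4, 97.4, 65.2 and 79.2 CPM in central myelin of TN1, TN2, TN3 and HC. It was at 65.3, 81.3 and 56.2 CPM in peripheral myelin of TN1, TN3 and HC and at 33.25, 54.4, 50.2 and 31.976 CPM in the ganglion. The myelins overlapped, and every ganglion value was below them. Plxnb3 had log2 fold changes of -1.08 ± 0.14 for ganglion against central (adjusted p = 7.55e-05) and -1.03 ± 0.14 against peripheral myelin (adjusted p = 0.000201). Between central and peripheral myelin it was 0.16 (95% interval -0.31 to 0.63, adjusted p = 0.677). Plxnb2, which many cell types express, was also lower in the ganglion, by smaller sizes of -0.35 ± 0.11 and -0.58 ± 0.15 (adjusted p = 0.0162 and 0.0098), and its ranges of 40.2 to 81.4, 45.974 to 92.1 and 43.2 to 96.4 CPM in ganglion, central and peripheral myelin overlapped.

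**Figure D3:**
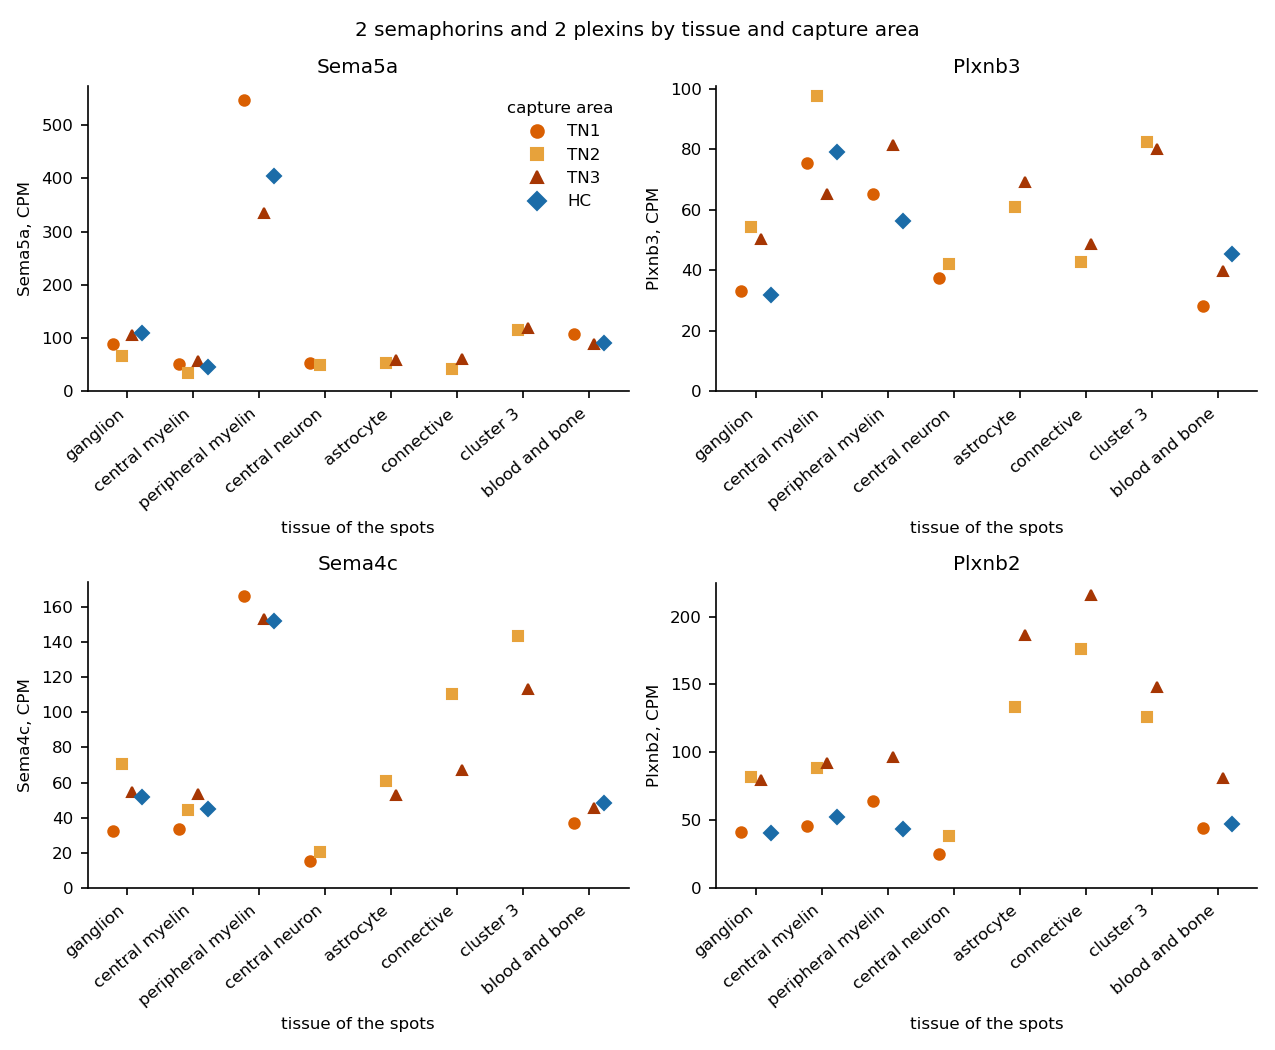
Sema5a, Plxnb3, Sema4c and Plxnb2 in each tissue and capture area, in CPM on linear axes from 0, with 1 point for each area with 20 or more spots. Sema5a has its 3 highest points in peripheral myelin (336 to 548 CPM), and Plxnb3 has its highest point in central myelin (97.4 CPM).

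Outside the ganglion and the myelins, connective tissue had the highest mean level of Plxnb2, Plxnd1, Nrp2 and Sema3e. It had 20 spots or more in TN2 and TN3, where Plxnb2 was at 176 and 216 CPM and Nrp2 at 61.1 and 54.4 CPM. In the central neuron tissue, named by 5 genes of mostly inhibitory neurons and present in TN1 and TN2, Sema6b was at 31.3 ± 0.802 CPM and Sema4a at 27.7 ± 7.3963 CPM (SD, n = 2). Nrp1, the co-receptor of Sema3a, was low in every tissue, with its highest mean of 7.39 ± 1.6005 CPM in the blood and bone tissue (SD, n = 3), and passed in no comparison.

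**Figure D4:**
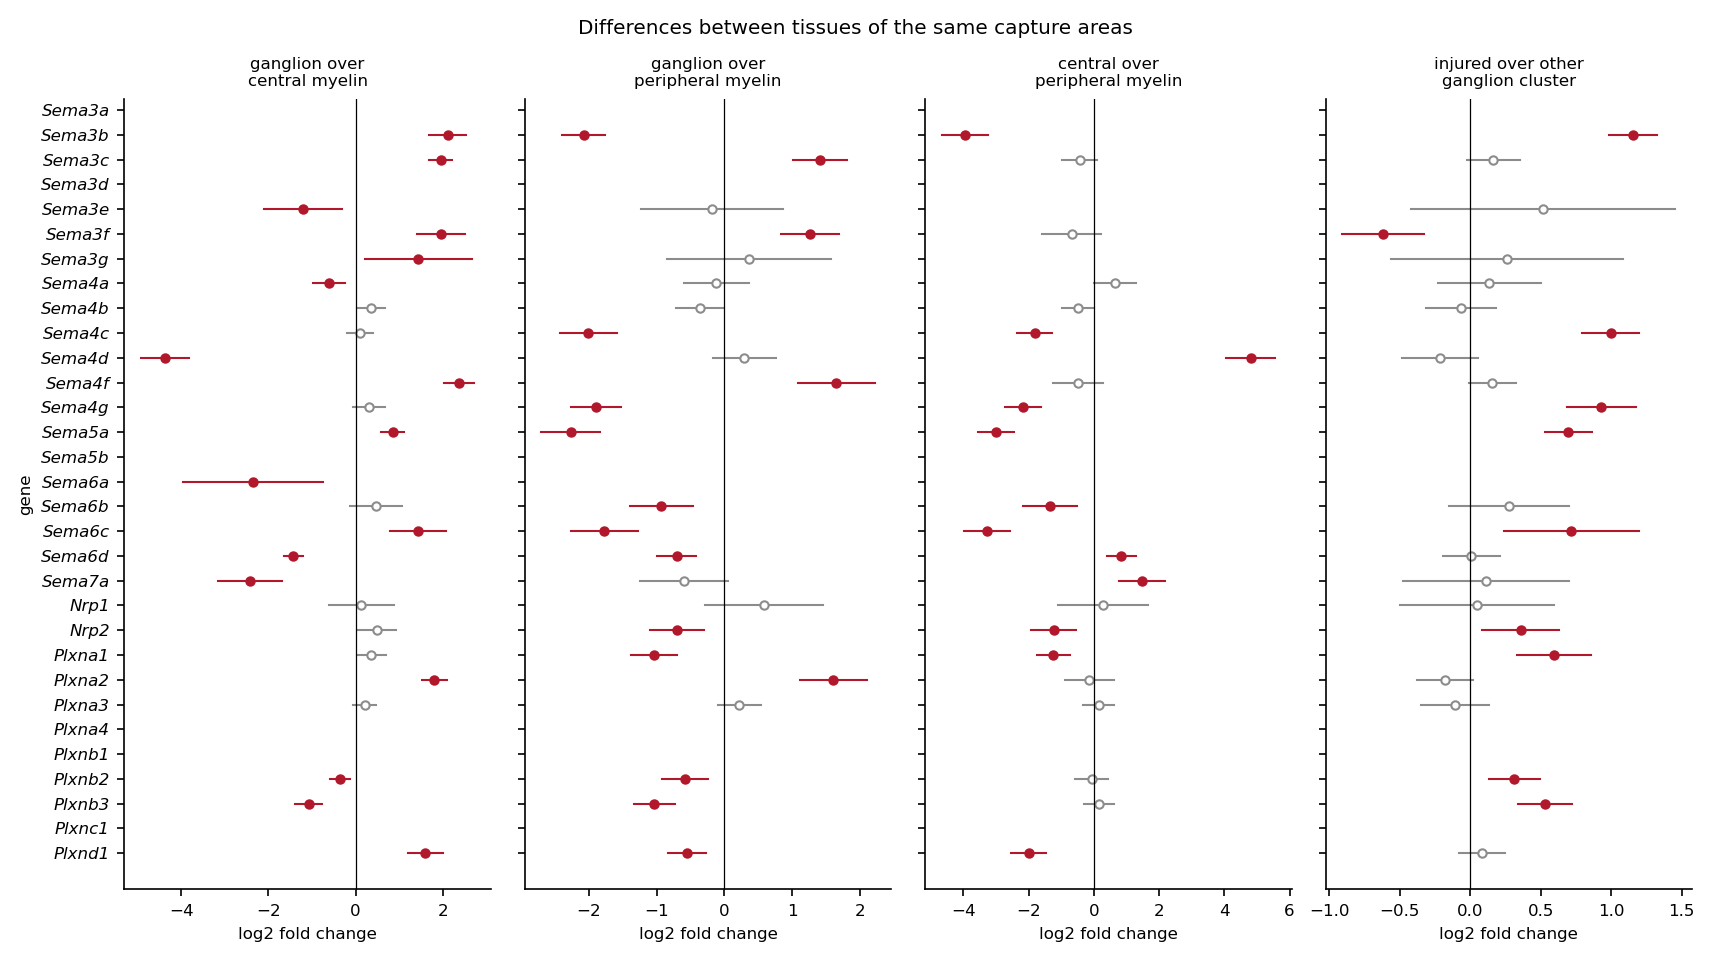
Log2 fold changes between tissues, or between ganglion clusters, of the same capture areas for the members tested, with 95% intervals and 1 row for each gene. Filled red points passed the adjusted threshold of 0.05 in edgeR's quasi-likelihood test and open grey points did not. Sema4d lies farthest toward central myelin, at -4.37 and 4.80, and Sema5a, Sema3b, Sema4c, Sema4g and Sema6c lie farthest toward peripheral myelin in its comparison with the ganglion.

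To set regulatory sequence beside these patterns, the 250 bases upstream of the annotated start are given for 1 member of each tissue, from RefSeq on the build GRCr8, which may differ from the build of the counts. These are Sema4f for the ganglion, Sema6c for peripheral myelin and Sema7a for central myelin, chosen among the members with an entry. Of the 31 members 23 had one, and Sema4d, Sema5a and Sema3b are named only. Capitals mark ACAAAG or its reverse complement CTTTGT, a core that SOX factors bind, searched on both strands. These letters were in 16.3% of the 33469 promoters searched over the same length and in 5 of the 23 members. The stretch of Sema4f lies on the minus strand at chr4:116995443-116995692 and holds them 1 time. Those of Sema6c, plus strand at chr2:185426236-185426485, and Sema7a, plus strand at chr8:67244068-67244317, do not hold them in this window.
Sema4f: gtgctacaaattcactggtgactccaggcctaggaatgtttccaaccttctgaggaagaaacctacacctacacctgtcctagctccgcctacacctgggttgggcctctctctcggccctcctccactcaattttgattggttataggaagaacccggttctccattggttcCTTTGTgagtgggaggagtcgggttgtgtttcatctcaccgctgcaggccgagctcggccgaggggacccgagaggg
Sema6c: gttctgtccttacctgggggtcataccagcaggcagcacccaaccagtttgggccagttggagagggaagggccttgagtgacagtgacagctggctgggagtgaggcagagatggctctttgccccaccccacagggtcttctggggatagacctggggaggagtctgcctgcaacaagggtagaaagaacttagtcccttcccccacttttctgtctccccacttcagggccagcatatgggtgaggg
Sema7a: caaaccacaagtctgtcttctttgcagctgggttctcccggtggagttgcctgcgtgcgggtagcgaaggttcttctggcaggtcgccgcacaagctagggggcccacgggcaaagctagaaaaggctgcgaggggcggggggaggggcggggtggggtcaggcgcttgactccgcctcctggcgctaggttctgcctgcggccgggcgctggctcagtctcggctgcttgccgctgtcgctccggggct

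Sema5a and its receptor Plxnb3 were next looked for in the same spots. Each spot was thinned to 2000 UMIs so that depth was equal, which left out 9, 16, 116 and 9 shallower spots from TN1, TN2, TN3 and HC, respectively. After thinning, Sema5a was found in 64.1% of the peripheral myelin spots of TN1, 45.4% of those of TN3 and 27 of the 54 of HC. In central myelin it was found in 8.235% (TN2) to 13.8% (TN3) of spots. Plxnb3 was found in 13.2%, 14.4% and 9.26% of the peripheral myelin spots of TN1, TN3 and HC. Its shares were 11.8% (TN3) to 18.2% (TN2) in central myelin and 5.23% (HC) to 13.6% (TN3) in the ganglion. Both transcripts were found in 8.61% (6.105% to 11.7%) of the peripheral myelin spots of TN1 with a 95% exact binomial interval, 7.31% (4.91% to 10.4%) of TN3 and 7.41% (2.055% to 17.9%) of HC. In the ganglion the shares were 3.175% (1.53% to 5.76%) in TN1, 1.202% (0.391% to 2.78%) in TN2, 2.54% (1.17% to 4.77%) in TN3 and 1.15% (0.576% to 2.05%) in HC. Within TN1, TN3 and HC the intervals of peripheral myelin lay above those of the ganglion, narrowly so in HC. Whether both were found together more often than their single shares would give was not tested. In central myelin of TN3 both were in 0 of 246 thinned spots, which at this depth allows a share of up to 1.22% (3 counts of the total), and in 17 of 279 spots as deposited.

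Over all spots after thinning, Sema5a and Plxnb3 were found together at shares of 3.99% (3.08% to 5.08%), 1.45% (0.8625% to 2.285%) and 3.05% (2.31% to 3.96%) for the TN areas and 1.397% (0.9304% to 2.01%) for HC. TN1 and TN3 lay above HC, and TN2 did not. As deposited, the shares were 30.5%, 58.8%, 46.95% and 35.5%, with TN2, the deepest area per spot, as the highest. Peripheral myelin, where both were found together most often after thinning, took 26.4%, 0.796% and 20.2% of the spots in TN1, TN2 and TN3. It took 2.68% in HC, and its part in the whole-area shares was not tested. Sema4c and its receptor Plxnb2 were together at 0.951% (0.533% to 1.56%), 2.98% (2.11% to 4.09%) and 3.55% (2.75% to 4.515%) for the TN areas and 1.05% (0.6498% to 1.597%) for HC, so that TN2 and TN3 lay above HC and TN1 did not. As deposited, these were 19.85%, 67.4%, 51.4% and 32.1%. The intervals cover counting error only, and a difference in shares between TN and HC was not tested.

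TN was compared with HC on the sums of each area over all spots, in the ganglion and in central myelin, to ask which members differ in the nerve of the model. The single HC area was taken to vary as the TN areas do, and condition and capture area cannot be told apart. None (0) of the 28 members tested over all spots passed the adjusted threshold in edgeR, where 0% of all genes passed. There 3 members had an unadjusted p under 0.05, as did 8.53% of all genes, and DESeq2 called 2 (1.06% of all genes). By level, 10 of the 31 members had all TN areas above HC, 8 had all below and 13 overlapped. The share of all genes on 1 side of HC was not taken, so these counts say nothing particular to the members. They include members near the floor, such as Sema3a with 2 UMIs. In the ganglion 0 of 24 passed with edgeR (0% of all genes), 1 had an unadjusted p under 0.05 (9.96% of all genes) and DESeq2 called 1 (1.03%). In central myelin 0 of 22 passed with edgeR (0%), 3 had an unadjusted p under 0.05 (3.15% of all genes) and DESeq2 called 0 (0.0307%). The counts changed when TN1 was left out. Without it edgeR called 7 of 28 members over all spots, 4 of 25 in the ganglion and 1 of 20 in central myelin, against 14.8%, 7.84% and 2.79% of all genes.

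Sema4d had the largest log2 difference among the members tested over all spots. It was at 88.7, 38.4 and 69.6 CPM in TN1, TN2 and TN3 and at 276 CPM in HC. In the ganglion it was at 24.6 ± 8.85 CPM in TN (SD, n = 3) and 105.5 CPM in HC, in central myelin at 559 ± 217 and 1256 CPM, and in peripheral myelin at 17.7 ± 5.63 (n = 2) and 90.2 CPM. HC was the highest area in each tissue it could be measured in. The log2 fold change of Sema4d was -2.15 (95% interval -3.31 to -0.98, adjusted p = 0.556) over all spots and -2.17 (-3.04 to -1.30, adjusted p = 0.435) in the ganglion, so neither passed with edgeR. In central myelin it was -1.23 (-2.17 to -0.28, adjusted p = 1). With DESeq2 it passed over all spots (-2.17, adjusted p = 0.0127) and in the ganglion (-2.18, adjusted p = 9.75e-05), and likewise without TN1 with edgeR (-2.43, adjusted p = 0.0238, and -2.49, adjusted p = 5.94e-05).

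Oligodendrocyte genes were read beside Sema4d. The 8 central myelin genes, none at 0, summed to 758, 323, 296 and 620.5 CPM over whole areas in the order TN1, TN2, TN3, HC, with TN1 the highest. In the ganglion they summed to 187, 94.3, 82.046 and 215 CPM, and within central myelin to 2605, 2674, 2755 and 2632 CPM. Within central myelin their sums were nearly level, but these genes also named the central myelin clusters. Sema4d ranged from 361 to 1256 CPM there, and the part of oligodendrocyte content in its levels was not tested. Most HC spots of central myelin lay in cluster 8 (335, against 143 in cluster 4), and most TN spots in cluster 4 (314, 134 and 215, against 73, 49 and 64 in cluster 8). Sema4d was at 947, 588, 1204 and 1407 CPM in cluster 8 and at 362, 222, 608 and 684 CPM in cluster 4 of TN1, TN2, TN3 and HC. For Sema4d HC was the highest in either cluster, with log2 fold changes of -0.69 and -0.86 that did not pass with edgeR (adjusted p = 0.999 and 1).

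**Figure D5:**
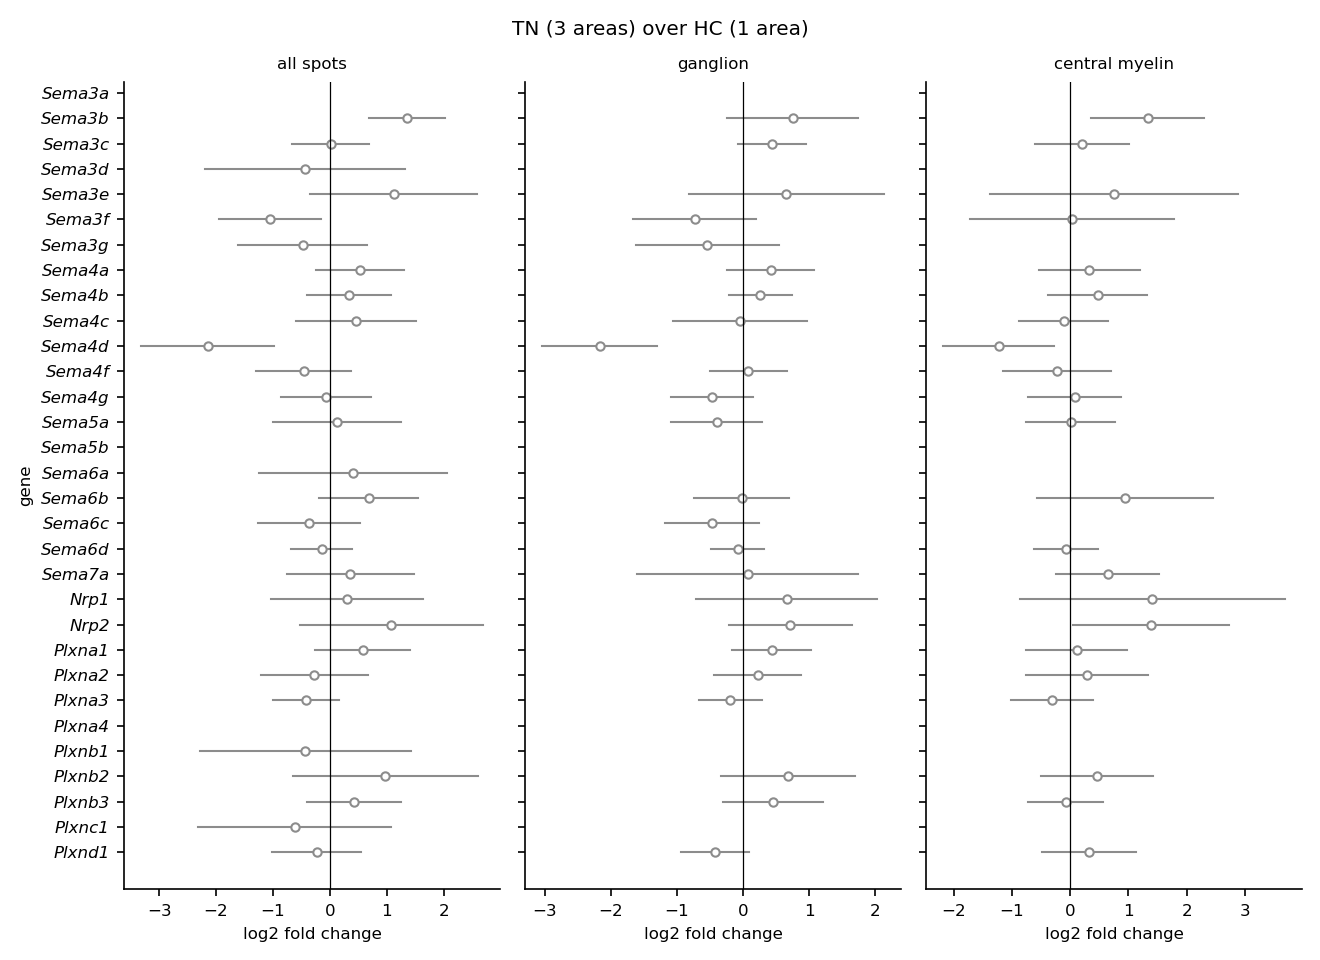
Log2 fold changes of TN (3 areas) over HC (1 area) for the members tested over all spots, in the ganglion and in central myelin, with 95% intervals. Open grey points did not pass the adjusted threshold of 0.05 in edgeR's quasi-likelihood test, which holds for every member shown. Sema4d is the lowest point in each panel, at -2.15, -2.17 and -1.23.

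Sema3b was at 123, 113 and 95.5 CPM in TN1, TN2 and TN3 and at 40.9 CPM in HC over all spots, with no overlap. Its log2 fold change was 1.35 (95% interval 0.68 to 2.01, adjusted p = 0.556) with edgeR and 1.33 with DESeq2, where it passed (adjusted p = 0.0152). In the ganglion the log2 fold change of Sema3b was 0.75 (adjusted p = 0.539) and in central myelin 1.33 (adjusted p = 1). Peripheral myelin, the tissue with most Sema3b, took 26.4%, 0.796% and 20.2% of the spots in TN1, TN2 and TN3 and 2.68% in HC, and cluster 3, with the next highest mean of Sema3b (203 and 142 CPM in TN2 and TN3), took 26.04% and 25.6% of the spots there and 0 spots in TN1 and HC. Their part in the whole-area difference was not tested. Sema3f went the other way, at 16.3, 10.8 and 10.2 CPM in the TN areas and 24.4 CPM in HC, with a log2 fold change of -1.05 (95% interval -1.94 to -0.16, adjusted p = 0.556). The ganglion, the tissue with most Sema3f, took 19.85%, 33.3% and 21.65% of the spots in TN1, TN2 and TN3 and 47.5% in HC, and its part was not tested either.

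Plxnb2 and Nrp2 split the TN areas. Plxnb2 was at 104 and 119 CPM over all spots of TN2 and TN3, but at 41.7 CPM in TN1 and 42.5 CPM in HC (log2 fold change 0.97, adjusted p = 0.601). Nrp2 was at 34.5 and 31.8 CPM in TN2 and TN3, 12.6 CPM in TN1 and 11.7 CPM in HC (1.08, adjusted p = 0.577). Both passed over all spots when TN1 was left out, at 1.31 (adjusted p = 0.0222) and 1.41 (adjusted p = 0.0184), as did Sema3e, Sema3b, Sema3f, Sema4c and Sema4d. Connective tissue genes, 6 in all, summed to 1974, 5777, 5583 and 1450.2 CPM over whole areas in the order TN1, TN2, TN3, HC, and 7 macrophage genes to 417, 901, 1320.0 and 278 CPM, none at 0. Both lists were higher in TN2 and TN3, and their part in the levels of Plxnb2 and Nrp2 was not tested.

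Of the other ligand and receptor genes that the study names, Sema5a and Sema4c overlapped between TN and HC over all spots, and Plxnb3 had all TN areas above HC. Sema5a was at 147, 76.2 and 138 CPM in the TN areas and 105 CPM in HC, with a log2 fold change of 0.13 (95% interval -0.995 to 1.25, adjusted p = 0.926). Peripheral myelin, the tissue with most Sema5a, took unequal parts of the areas, as given above, and its part in these levels was not tested. Plxnb3 was at 42.8, 61.6 and 66.4 CPM in the TN areas and 40.1 CPM in HC (0.43, -0.40 to 1.25, adjusted p = 0.636). Sema4c was at 49.01, 90.8 and 88.959 CPM and 52.4 CPM (0.46, -0.60 to 1.52, adjusted p = 0.684). None of the 3 passed with edgeR, and each interval includes 1, so a difference of that size was not excluded. In spots thinned to 2000 UMIs, Plxnb3 was found at shares of 10.5% (9.05% to 12.1%), 12.7% (10.9% to 14.6%) and 12.7% (11.2% to 14.3%) for the TN areas and 7.735% (6.602% to 8.99%) for HC. The TN intervals of Plxnb3 lay above that of HC, by a narrow margin in TN1, and cover counting error only.

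In the ganglion the log2 fold changes were -0.40 for Sema5a, 0.46 for Plxnb3, -0.05 for Sema4c and 0.68 for Plxnb2, and none of these 4 passed. The ganglion spots of HC lay in cluster 1 (953 of 957), whereas 104, 376 and 290 of the 315, 418 and 415 ganglion spots of TN1, TN2 and TN3 lay in cluster 5, where these 4 genes were higher within the TN areas. Within cluster 1 alone, Sema5a was at 74.9, 51.1 and 74.8 CPM in the TN areas and 109 CPM in HC, and Sema4c at 22.7, 44.6 and 36.8 CPM against 51.8 CPM. HC was thus above every TN area for both there, where Sema4c over the whole ganglion overlapped. A set of 7 Schwann cell genes, also used below, summed to 6635 CPM in cluster 1 of HC. In cluster 1 of TN1, TN2 and TN3 it summed to 3687, 2858 and 4244 CPM. Sema5a and Sema4c were both higher in peripheral myelin than in the ganglion, and the part of Schwann cell content here was not tested. The log2 fold changes within cluster 1 were -0.74 for Sema5a, -0.67 for Sema4c, 0.115 for Plxnb3, 0.47 for Plxnb2 and -1.98 for Sema4d (adjusted p = 0.438, 0.58, 0.896, 0.661 and 0.145 with edgeR). There 0 of 24 members passed (0.0341% of all genes did). An unadjusted p under 0.05 was found for 3 members, and its share over all genes was not taken.

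Inside the ganglion of the TN areas, 2 clusters were compared. Cluster 5 had the higher score for nerve injury genes such as Atf3, Sprr1a and Gal, and cluster 1 the higher score for sensory neuron genes. TN1, TN2 and TN3 had 104, 376 and 290 spots of cluster 5, while HC had 4 and was left out. With the area as a block, 9 of 24 members were higher and 1 was lower in cluster 5, against 17.2% and 14.6% of all genes (31.7% in either direction). Each of the 10 had that direction in all 3 areas, which the blocked test on these areas favours. Without the block 0 members passed in edgeR and 7 had an unadjusted p under 0.05, so these calls rest on comparing clusters within an area, and with the block DESeq2 called 7 (15.4% of all genes). Without the block 1.8% of all genes passed, and their share with an unadjusted p under 0.05 was not taken.

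Sema3b was at 160.4, 98.99 and 68.2 CPM in cluster 5 of TN1, TN2 and TN3 and at 77.4, 38.6 and 32.8 CPM in cluster 1 (log2 fold change 1.15 ± 0.08, adjusted p = 1.07e-09). Sema4c was at 53.2, 75.1 and 71.004 CPM against 22.7, 44.6 and 36.8 CPM (0.998 ± 0.10, adjusted p = 6.57e-08). Sema4g was at 38.7, 22.96 and 39.9 CPM against 20.1, 12.9 and 21.3 CPM (0.93 ± 0.12, adjusted p = 1.99e-06). In these 3 genes cluster 5 was well above cluster 1 within every area. Sema5a was at 118, 69.022 and 133 CPM in cluster 5 against 74.9, 51.1 and 74.8 CPM in cluster 1 (0.70 ± 0.08, adjusted p = 7.41e-07). Sema6c (0.72), Plxna1 (0.59), Plxnb3 (0.53), Nrp2 (0.36) and Plxnb2 (0.31) were the other 5 that were higher. Sema3f was the 1 member that was lower, at 16.2, 11.8 and 14.2 CPM against 28.4, 15.3 and 22.7 CPM (-0.62 ± 0.14, adjusted p = 0.00168). Sema4d, at 29.3, 16.2 and 22.9 CPM against 36.8, 23.3 and 21.52 CPM, did not pass.

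Schwann cell genes were also higher in cluster 5. A set of 7 such genes, Prx among them, summed to 6378, 5208 and 8613 CPM in cluster 5 of TN1, TN2 and TN3 and to 3687, 2858 and 4244 CPM in cluster 1, with none at 0, and the 7 macrophage genes to 414, 698 and 559.99 CPM against 246, 344 and 364 CPM. The 6 connective tissue genes were also higher, at 1774, 3660.2 and 3874 CPM against 1029, 2077 and 2157 CPM, and connective tissue had the highest mean of Nrp2 and Plxnb2. The part of these lists in the levels of the 9 members that were higher in cluster 5 was not tested. All 9 also passed as higher in peripheral myelin than in the ganglion, and the share of all genes that did both was not taken. This comparison and that of ganglion with peripheral myelin share ganglion spots.

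Whether TN against HC differed between ganglion and central myelin was tested as an interaction. None (0) of 25 members passed with edgeR (0.0226% of all genes did), 2 had an unadjusted p under 0.05 (5.68% of all genes) and DESeq2 called 0. Those with an unadjusted p under 0.05 were Plxnd1 (-0.75, adjusted p = 0.827) and Sema4d (-0.92, adjusted p = 0.856). Without TN1, 1 member passed, Sema4d (-1.29, adjusted p = 0.0228), against 0.891% of all genes.

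The pathway around the receptors was followed with 41 partner genes, among them co-receptors, CRMP proteins that relay class 3 signals, RhoGEFs that bind plexins of class B, and small GTPases. Between ganglion and central myelin 14 of 38 tested were higher and 13 lower in the ganglion, against 28.8% and 23.1% of all genes. L1cam, an adhesion molecule that binds neuropilin, was higher (2.48, adjusted p = 3.07e-06), as were Crmp1 (1.59, adjusted p = 4.55e-06) and Mical1 (1.71, adjusted p = 1.06e-06), which oxidises actin downstream of plexins. Rap1a, a GTPase that plexins inactivate, was lower (-2.32, adjusted p = 1.46e-07). Against peripheral myelin 12 of 37 were higher and 8 lower in the ganglion (20.5% and 24.2% of all genes), with Erbb2, a partner of class B plexins and neuregulin co-receptor of Schwann cells, among the lower (-1.31, adjusted p = 0.000134). Between central and peripheral myelin 8 of 33 were higher and 6 lower in central myelin, against 9.75% and 9.05% of all genes. In cluster 5 against cluster 1, 9 of 37 were higher and 8 lower (17.2% and 14.6% of all genes), and the adhesion molecule Chl1 was among the higher (1.23, adjusted p = 0.0075). Between TN and HC no gene passed with edgeR, and 4 of 40 partners over all spots, 6 of 39 in the ganglion and 0 of 30 in central myelin had an unadjusted p under 0.05, against 8.53%, 9.96% and 3.15% of all genes.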

How the data were processed

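UMI counts per gene and spot were made by the authors with Space Ranger (1.2.0 per the file header) and STAR and were deposited as whole numbers, not normalized, in 1 matrix whose barcode suffix names the area. For the genome build and annotation, nothing is given in the sources used here. The 16088 genes with a UMI in 10 or more spots, without the members, entered SCTransform (sctransform 0.4.2, Seurat 5.3.0). On 3000 variable genes and 30 principal components, 10 K-means clusters were made from 50 starts. A cluster took the name of its highest marker list by the mean log2 of CPM plus 5, centred over clusters, or none if the next list lay within 0.25. The nerve injury and endothelial lists named no cluster. The summed level of Schwann cell genes leaves out 1 gene of the 8 on that list, which is not reported here. Summed UMIs of each tissue and area were compared in R 4.3.3 by the quasi-likelihood test of edgeR 4.0.16 (TMM scaling, filterByExpr) with Benjamini-Hochberg adjustment at 0.05. TN against HC used 4 areas. Tissues were compared in areas with 20 or more spots of both, with the area as a block because its tissues come from the same animals. No doublet caller was run, since spots hold several cells.

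Members, lists and tests were chosen with earlier results of these data known. By the naming rule, values were given for 5 members named by the study, up to 5 called members in each direction of a comparison, the 3 smallest p-values on 1 side of HC where none was called, and the leading member of each class. Others, such as the rare members, were named after their values were seen. Alternatives were DESeq2 1.42.0 or its size factors, no low-count filter, fewer genes or spots, 8 or 12 clusters, members kept in clustering, tissue by marker lists, areas left out, no block and, chosen after seeing the data, single central myelin clusters and peripheral myelin without TN2. The tests were tested on simulated data. Shares have exact binomial intervals at 95%, and floors are 3 counts.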

Additional observations from a re-analysis of the deposited data

Results flagged for a closer look

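Plxnb2 had opposite directions in TN and HC between the 2 myelins. Its log2 ratio of CPM plus 1, central over peripheral myelin, was -0.47 in TN1 and -0.06 in TN3 and 0.26 in HC. The value of TN3 is close to 0. Tested as an interaction over TN1, TN3 and HC, with 1 residual degree of freedom and chosen after seeing the data, the difference was -0.63 (95% interval -1.60 to 0.34, adjusted p = 0.819, edgeR) and did not pass. In that test 0 of 23 members and 0 of 11046 genes passed, and 3 members and 806 genes had an unadjusted p under 0.05.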

How the results depend on the processing

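No paired analysis was possible because HC is 1 area, so TN and HC share fewer than 2 numbers. For tissues of the same areas the block was part of the test. Without the replicate block, the members called went from 17 to 13 for ganglion against central myelin, from 16 to 13 for ganglion against peripheral myelin, from 12 to 11 for central against peripheral myelin and from 10 to 0 for cluster 5 against cluster 1 (edgeR, 7 with an unadjusted p under 0.05), while 41.7%, 22.4%, 14.6% and 1.8% of all genes passed. With 1 area left out in turn the members called were 14 to 16, 14 to 16, 9 to 13 and 8 to 11. The shares of all genes in those fits are not given here, so these ranges only describe the members. For TN against HC the ranges with a TN area left out were 0 to 7 over all spots, 0 to 4 in the ganglion, 0 to 1 in central myelin and 0 to 1 for the interaction, and each upper value is that without TN1. DESeq2 called 2 over all spots and 1 in the ganglion. The cause of these shifts was not tested.

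Of 874 log2 fold changes of named members under alternatives, 24 planned and 4 added ones changed sign, and 0 of these had a reported value past the threshold. For TN against HC in central myelin, Plxnb3 was -0.22 to 0.02 with 1 TN area left out, 0.12 with 8 clusters, 0.05 in cluster 4 and 0.22 in cluster 8. Sema4c was -0.31 to 0.08 with 1 left out and 0.10 in cluster 8. Sema5a was -0.16 to 0.21 with 1 left out, -0.01 without the low-count filter, 0 with members kept in clustering and -0.41 in cluster 4. In the ganglion Sema4c was -0.30 to 0.20 with 1 left out and 0.05 with 12 clusters, and over all spots Sema5a was -0.04 to 0.40. For central against peripheral myelin, leaving out 1 area gave -0.26 to 0.19 for Plxnb2 and -0.04 to 0.35 for Plxnb3, and for ganglion against peripheral myelin -0.05 to 0.54 for Sema4d. For ganglion against central myelin Sema4c was -0.12 to 0.15 with 1 left out, -0.01 with 8 clusters, -0.19 with 12 and -0.25 by marker lists. Its interaction was -0.24 to 0.11 with 1 left out, 0.02 with DESeq2 or its size factors, 0.15 without mitochondrial, ribosomal protein and hemoglobin genes, 0.05 with 12 clusters and 0.07 by marker lists.

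Without thinning, shares of spots in TN1, TN2, TN3 and HC were 62.6%, 72.4%, 69.4% and 67.2% for Sema5a, 40.96%, 73.4%, 56.7% and 49.3% for Plxnb3, 30.5%, 58.8%, 46.95% and 35.5% for both, and 19.85%, 67.4%, 51.4% and 32.1% for Sema4c with Plxnb2. Thinning and the spots it leaves out change together here. TN against HC in peripheral myelin was not part of the report's tests, as TN2 has 10 spots. TN1 and TN3 were set against HC, a choice made after seeing the data that leaves 1 residual degree of freedom. There 0 of 23 members passed with edgeR (0 of 10692 genes), with Sema4d at -2.31 (adjusted p = 0.0985). Of those members 4 had an unadjusted p under 0.05, as did 1805 of the 10692 genes. With 8 clusters 0 of 21 members passed with edgeR (0 of 10066 genes) and 3 had an unadjusted p under 0.05, whose share over all genes was not taken. By marker lists 1 of 24 passed, Sema4d (-2.38, adjusted p = 0.0368, edgeR), among 255 of 10922 genes.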
